A study of Mus musculus with 147 samples.

Results

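The genes described here are 10 genes of the elastic fibre: elastin (*Eln*), the proteins that build or bind its microfibrils (*Fbn1*, *Mfap2*, *Mfap5*, *Emilin1*), a fibulin that links elastin to the cell surface (*Fbln5*), 2 latent TGF-β binding proteins (*Ltbp1*, *Ltbp4*) and 2 cross-linking enzymes (*Lox*, *Loxl1*). They were found by symbol among the 35438 genes of the count tables, and all 10 were present. Single YFP-positive cells from the kidney cortex of adult C57BL/6 mice were sorted, captured in separate wells of the Fluidigm C1 System and amplified to cDNA over the whole length of the transcript with SMART-Seq v4. The WT renin cells came from Ren1c+/+ Ren1c-YFP mice (51 wells), and the *Renin-null* cells came from Ren1c-/- Ren1c-YFP mice, which lack the renin gene and were given saline injections after birth (96 wells). In both genotypes YFP is a transgene driven by *Ren1* regulatory sequence, so the sort selects cells in which that sequence is active and not cells that hold renin. The methods pool several mice in each genotype, with a single capture for WT and several for *Renin-null* cells. No label ties a well to a mouse or a capture. Each genotype was therefore taken as 1 sample, genotype and capture cannot be told apart, and no test between genotypes was possible. The labels do place the *Renin-null* wells in 2 sequencing libraries, YFP1 and YFP2, of 48 wells each.

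Elastic fibres give arteries their recoil. Cells first lay down a scaffold of fibrillin microfibrils, to which microfibril-associated glycoproteins and EMILIN-1 bind, and tropoelastin is deposited on it with the help of fibulin-5 and latent TGF-β binding protein 4 before lysyl oxidases cross-link it. Latent TGF-β binding proteins also anchor inactive TGF-β in the matrix. In arteries, smooth muscle cells are a main source of elastin. Renin cells of the adult kidney are specialised mural cells of the afferent arteriole that share an origin with arteriolar smooth muscle.

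The total count per well ran from 26401 to 17124854 in WT wells, with a median of 1525972. It ran from 3628 to 14505243 in YFP1 and from 9102 to 11069338 in YFP2. The summed counts were 197904443 for WT, 181424477 for YFP1 and 217388328 for YFP2. Levels are given as counts per 1000000 counts (CPM) of the summed wells, and as CPM of single wells where stated. Intervals are at a level of 95%. Intervals of levels and ratios cover counting error only, and not the spread between wells, captures or mice. The chemistry carries no molecular identifiers and PCR copies of a molecule are counted again. The intervals are therefore too narrow even for the counting of molecules. Whether the counts of both genotypes were scaled for transcript length in 1 step is not given in the sources used here, which applies to every ratio between them.

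Several wells stood apart. The median mitochondrial share was 60.4% of counts in WT wells and 12.4% in *Renin-null* wells. When wells had to hold 100000 counts and 1000 genes with no more than 25% of counts mitochondrial, 15 WT and 57 *Renin-null* wells were left. In addition, 4 pairs of *Renin-null* wells had nearly the same profile (r of at least 0.95 over genes, with 0.894 for the next pair). Of these pairs 3 joined a YFP1 well with a YFP2 well, so the libraries cannot be taken as independent samples of cells. Whether such a pair is 1 library sequenced more than once is not given in the sources used here. *Ren1*, the deleted gene, checked the labels. It held 96023 CPM in WT wells, with a count in 51 of 51 wells, and 0.135 CPM in *Renin-null* wells, with a count in 16 of 96. The second renin-cell marker, *Akr1b7*, an aldo-keto reductase that renin cells express, was at 4528 CPM in WT wells against 2011 CPM in *Renin-null* ones, so *Renin-null* wells kept a renin-cell transcript without renin itself.

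*Elastin.* Summed over wells, *Eln* (chromosome 5, 134702593 to 134747323 on GRCm38, minus strand) was 11.3-fold higher in *Renin-null* than in WT wells. WT wells ran from 0 to 107 CPM with a median of 0, and 18 of 51 wells held a count. YFP1 wells ran from 0 to 925 CPM with a median of 0.760, and YFP2 wells from 0 to 1683 CPM with a median of 2.15. The ranges overlapped at the bottom, since 74 of 96 *Renin-null* wells held a count but most of these counts were low, and the difference lay in the upper wells. A level of at least 100 CPM was reached in 1 WT well and in 20 *Renin-null* wells, 8 of YFP1 and 12 of YFP2. In a shallow well 1 count can exceed this level, as in a YFP2 well of 9102 counts in total, at 109.9 CPM. Of the 8 YFP1 wells only 4 were within the limits on depth and mitochondrial share, and of the 12 YFP2 wells 10 were. Among wells within the limits on depth and mitochondrial share, a count was held by 13 of 15 WT and 52 of 57 *Renin-null* wells, with medians of 0.616 and 1.10 CPM, and 1 and 14 of them reached 100 CPM, so the gap in the share of wells with a count was not seen there. The sum was 12.95 CPM (12.45 to 13.46) in WT, 115.4 CPM (114 to 117) in YFP1 and 172.1 CPM (170 to 174) in YFP2. On the log2 scale the ratio was 3.50 (3.44 to 3.56) for both libraries, 3.16 for YFP1 and 3.73 for YFP2. The *Eln* level did not depend on the near-identical wells, without which the ratios were 3.14 and 3.68. In YFP2, 13 of 14 wells that share an index with the highest *Eln* well held a count, against 25 of 33 that do not, and in YFP1 these were 10 of 14 and 24 of 33. An antisense gene, Gm30003, overlaps *Eln*, and the counts of the gene and its antisense partner were not separated here.

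**Figure D1:**
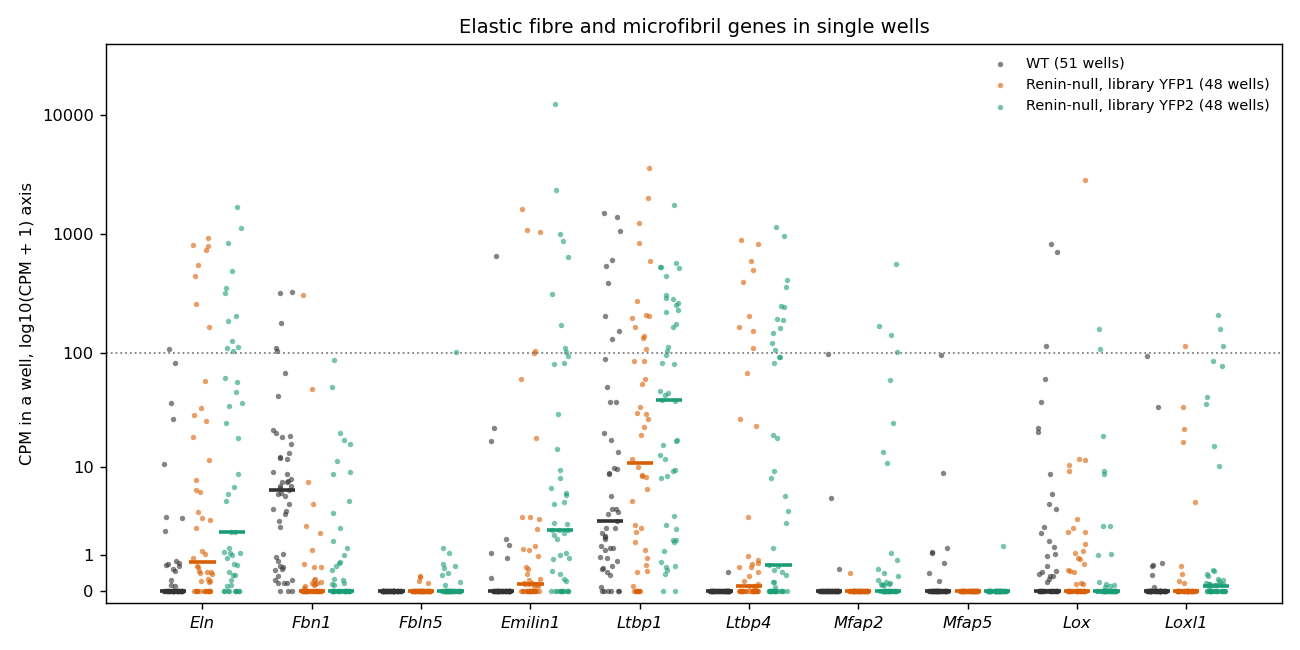
CPM of each elastic fibre gene in every well, on a log10(CPM + 1) axis, for WT (grey), YFP1 (orange) and YFP2 (green). Each point is a well, short bars are medians and the dotted line marks 100 CPM. *Eln*, *Emilin1* and *Ltbp4* have many *Renin-null* points above the line, against 1, 1 and 0 WT points, while *Fbn1* has 5 WT points above it and 1 *Renin-null* point.

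*Microfibril scaffold.* The scaffold genes did not move together. *Fbn1*, which encodes fibrillin-1, the main microfibril protein, was 3.31-fold lower in *Renin-null* wells, *Mfap5* was far lower, *Emilin1* was 48.1-fold higher and *Mfap2* differed between the libraries.

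*Fbn1* (chromosome 2, 125300594 to 125507993, minus strand) had a count in more WT wells than any other of the 10 genes, although after thinning to 50000 counts *Ltbp1* was found in more (19 of 49 against 14 of 49). WT wells ran from 0 to 325 CPM with a median of 6.10, and 48 of 51 held a count. YFP1 wells ran from 0 to 310 CPM and YFP2 wells from 0 to 85.9 CPM, both with a median of 0, and 42 of 96 *Renin-null* wells held a count. The summed level was 20.1 CPM in WT, 6.17 CPM in YFP1 and 5.99 CPM in YFP2, a log2 ratio of -1.72 (-1.80 to -1.65) that was nearly the same in both libraries (-1.70 and -1.74). Fewer *Renin-null* wells held a count although they were sequenced more deeply. After the same thinning, 14 of 49 WT wells and 6 of 84 *Renin-null* wells held one. Among the 15 WT wells within the limits the median was 0.517 CPM. *Fbn1* counts in WT wells were also set against the index labels, whose part was not tested. Of the WT wells that share an index with the well of the highest *Fbn1* count, 14 of 14 held a count with a median of 13, and of the others 33 of 36 held one with a median of 5. The summed difference rested on few wells. In WT 1 well held 47.5% of the *Fbn1* counts and the 3 highest wells held 85.9%. When wells of at least 100 CPM of endothelial, macrophage, podocyte, tubule and collecting duct markers were left out, the WT wells with the highest and second highest counts (1888 and 1333) were among them. *Fbn1* was then at 6.44 CPM in 38 WT wells and 10.1 CPM in 32 *Renin-null* wells, of whose 1382 counts 951 lay in 1 well, and the log2 ratio turned to 0.66. When wells of at least 100 CPM of fibroblast markers were left out instead, it was -3.51.

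*Emilin1* (chromosome 5, 30913402 to 30921277, plus strand) encodes a glycoprotein at the border of elastin and microfibrils that holds back TGF-β processing. WT wells ran from 0 to 655 CPM with a median of 0, and 8 of 51 held a count. YFP1 wells ran from 0 to 1617 CPM with a median of 0.1435, and YFP2 wells from 0 to 12383 CPM with a median of 2.27. A count was found in 65 of 96 *Renin-null* wells, and at least 100 CPM in 13 of them against 1 WT well. Of these 13 wells 10 were within the limits on depth and mitochondrial share, and the WT well was not. The summed level was 6.39 CPM in WT, 108.6 CPM in YFP1 and 473 CPM in YFP2, with a log2 ratio of 5.59 (5.51 to 5.67). A single YFP2 well held 51.7% of all *Renin-null* counts of *Emilin1*, and a single WT well 65.4% of the WT counts. Without the highest well of each genotype the log2 ratio was 6.07, so the direction did not rest on them. Within the limits on depth and mitochondrial share it was 6.89, and without the near-identical wells YFP1 was at 70.9 CPM. *Emilin1* counts were set against the index labels in the same way. In WT, 5 of 14 wells that share an index with the highest *Emilin1* well held a count, against 2 of 36 that do not. In YFP2 these were 13 of 14 wells with a median of 19 counts, against 23 of 33 with a median of 5, and in YFP1 they were 8 of 14 against 19 of 33.

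*Mfap2* and *Mfap5* encode the microfibril-associated glycoproteins MAGP-1 and MAGP-2. *Mfap5* (chromosome 6, 122505845 to 122529290, plus strand) was at 5.63 CPM in WT wells, 0 in YFP1 and 0.046 CPM (10 counts in 1 well) in YFP2. The log2 ratio was -7.81 (-8.88 to -6.93), and YFP1, set to 3 counts over the library, was at least 341-fold lower. In WT, 89.6% of the *Mfap5* counts lay in 1 well, and 8 of 51 wells held a count. Of the WT wells that share an index with that well, 6 of 14 held a count, against 1 of 36 of the others. *Mfap2* (chromosome 4, 141010418 to 141015984, plus strand) was at 5.49 CPM in WT, 94.7% of it in 1 well. It was at 0.011 CPM in YFP1 (2 counts) and 41.9 CPM in YFP2, where 20 of 48 wells held a count and 4 reached 100 CPM. The same WT well was the source of both glycoproteins. That well held 179 CPM of *Fbn1*, 97.5 CPM of *Mfap2* and 94.65 CPM of *Mfap5*, the most counts of each gene in any WT well, together with 322540 CPM of renin-cell markers and 0.284 CPM of fibroblast markers. Its *Eln* level was 0.0947 CPM and its *Emilin1* level 0. The WT levels of *Mfap2* and *Mfap5* thus describe 1 cell rich in renin, and not WT renin cells in general.

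*Fibulin-5.* *Fbln5* (chromosome 12, 101746565 to 101819055, minus strand) had no count in any WT well, where 3 counts over the group would be 0.0152 CPM. It was at 0.0331 CPM in YFP1 (6 counts) and 5.13 CPM in YFP2, so it was at least 185-fold higher over both libraries. One YFP2 well held 97.0% of all *Renin-null* counts, at 101 CPM. That well also held the most *Mfap2* counts of any *Renin-null* well (560 CPM) and 7890 CPM of fibroblast markers, 3660 CPM of smooth muscle markers and 6490 CPM of renin-cell markers. In the other 13 *Renin-null* wells with a count of *Fbln5*, no well held more than 6 counts.

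*Latent TGF-β binding proteins.* *Ltbp4* and *Ltbp1* differed in their presence in WT cells. *Ltbp4* (chromosome 7, 27305136 to 27337692, minus strand), whose protein also assists elastin deposition, was almost unseen in WT cells and common in *Renin-null* cells. *Ltbp1* (chromosome 17, 75005568 to 75392512, plus strand) was well expressed in both. For *Ltbp4*, 1 of 51 WT wells held a count (4 counts), and the WT sum was 0.0202 CPM (0.00551 to 0.05175). YFP1 wells ran from 0 to 889 CPM with a median of 0.111, and YFP2 wells from 0 to 1148 CPM with a median of 0.640. The YFP1 well at 889 CPM held only 10121 counts in total, and the YFP1 well with the most *Ltbp4* counts was at 825 CPM. Counts were found in 57 of 96 *Renin-null* wells. At least 100 CPM was reached in 21 wells, 15 of them within the limits on depth and mitochondrial share. The sums were 83.5 CPM in YFP1 and 121.9 CPM in YFP2. The log2 ratio was 12.34 (10.98 to 14.21), its width set by the 4 WT counts, and it was 12.01 and 12.56 in the separate libraries. The highest well held 18.6% of the *Renin-null* total, against 19.5% for *Eln* and 51.7% for *Emilin1*. Thinned to 50000 counts, 0 of 49 WT wells and 26 of 84 *Renin-null* wells held an *Ltbp4* count.

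*Ltbp1* was at 277.5 CPM in WT, 132.6 CPM in YFP1 and 221.6 CPM in YFP2, a log2 ratio of -0.62 (-0.63 to -0.60). WT wells ran from 0 to 1521 CPM with a median of 2.90, YFP1 wells from 0 to 3597 CPM with a median of 11.0 and YFP2 wells from 0 to 1777 CPM with a median of 39.0. The sums and the single wells therefore pointed in different directions. The 3 highest WT wells held 76.9% of the WT counts, while 30 of 96 *Renin-null* wells and 9 of 51 WT wells reached 100 CPM, and the difference of the mean log2(CPM + 1) was 1.31 with *Renin-null* wells higher. Among wells within the limits on depth and mitochondrial share, the median was 38.0 CPM for WT wells and 39.5 CPM for *Renin-null* ones, and 40% and 42.1% of wells reached 100 CPM, so the difference between single wells was not seen there. No direction is read from *Ltbp1*.

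The stretches upstream of the RefSeq starts of these 2 genes are shown because *Ltbp4* had the widest difference between genotypes of the 10 genes and *Ltbp1*, of the same family, was present in both. Of the 10 genes, 6 had an entry in the RefSeq promoter table on GRCm38.p6. Several motifs were searched on both strands in the 250 bases before each start: CRE (TGACGTCA), AP-1 (TGACTCA), the RBPJ core (TGGGAA), the TATA box (TATAAA), the Sp1 core (GGGCGG), the TEAD core (CATTCC) and the CArG box. Capitals mark a match on either strand, and sequences run 5′ to 3′ on the strand of the gene. For *Ltbp4* an outer start and one of 2 inner starts are given, the outer one without the bases that GENCODE annotates as exon (170 bases, chr7:27337693-27337862, minus strand; inner, 250 bases, chr7:27333664-27333913, minus strand). For *Ltbp1* the first start is given (250 bases, chr17:75005279-75005528, plus strand).
Ltbp4 outer start: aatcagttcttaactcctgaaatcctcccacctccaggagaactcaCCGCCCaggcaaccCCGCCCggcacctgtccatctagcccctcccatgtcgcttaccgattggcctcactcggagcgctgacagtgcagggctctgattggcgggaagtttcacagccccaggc
Ltbp4 inner start: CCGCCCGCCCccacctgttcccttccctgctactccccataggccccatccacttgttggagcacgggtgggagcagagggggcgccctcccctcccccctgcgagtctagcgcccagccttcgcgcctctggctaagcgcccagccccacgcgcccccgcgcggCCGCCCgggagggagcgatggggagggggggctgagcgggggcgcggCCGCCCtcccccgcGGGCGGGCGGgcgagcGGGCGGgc
Ltbp1 first start: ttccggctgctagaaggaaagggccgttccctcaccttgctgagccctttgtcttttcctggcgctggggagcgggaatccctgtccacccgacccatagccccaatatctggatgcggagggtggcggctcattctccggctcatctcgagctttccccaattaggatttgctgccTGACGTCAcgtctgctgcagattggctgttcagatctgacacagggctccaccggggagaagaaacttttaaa

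The inner *Ltbp4* window held 7 matches of the Sp1 core and none of the other motifs, with a GC content of 79.2% against a median of 52.4% over all 32851 promoters. The Sp1 core occurs in 32.7% of all promoters of this length. The *Ltbp1* window held 1 CRE, at position -73 from the start, and no other match. CRE is the site of cAMP-responsive factors, and 1.55% of all promoters hold it. These are matches of letters only. Binding was not measured.

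*Cross-linking enzymes.* *Lox* (chromosome 18, 52516067 to 52529867, minus strand) and *Loxl1* (chromosome 9, 58287738 to 58313186, minus strand) encode lysyl oxidases, which oxidise lysines of elastin and collagen so that they cross-link. Neither differed in 1 direction. *Lox* was at 93.2 CPM in WT, 229.7 CPM in YFP1 and 10.1 CPM in YFP2. These levels come from a handful of cells: in YFP1 a single well, at 2862 CPM, held 99.6% of the counts, and in WT the 3 highest wells held 99.05%. Without the highest well of each group, the log2 ratio of YFP1 over WT went from 1.30 to -5.66, while that of YFP2 was -3.15. The *Lox*-rich YFP1 well had no count of *Eln* or *Loxl1* and 18348 CPM of smooth muscle markers. *Lox* was found in 25 of 51 WT wells and 35 of 96 *Renin-null* wells. After thinning to 50000 counts it was found in 4 of 49 and 9 of 84 wells (8.16% and 10.7%), so no direction is read from the number of wells. In WT, 12 of 15 wells that share an index with the highest *Lox* well held a count, against 12 of 35 that do not.

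*Loxl1* was at 6.36 CPM in WT, 1.61 CPM in YFP1 and 28.2 CPM in YFP2. It was found in 7 of 51 WT wells, 9 of 48 YFP1 wells and 25 of 48 YFP2 wells. YFP2 was higher in the sum and YFP1 lower. Without the near-identical wells YFP1 was at 1.02 CPM and YFP2 at 21.2 CPM. The log2 ratio of YFP2 over WT was then 1.74, under 4-fold, against 2.15 in all wells. In YFP2, 10 of 14 wells that share an index with the highest *Loxl1* well held a count, against 14 of 33 that do not. The log2 ratio of both libraries was 1.34 (1.25 to 1.43). In WT 1 well held 65.7% of the counts and the 3 highest held 99.4%, and without the highest well of each genotype the log2 ratio was 2.24.

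**Figure D2:**
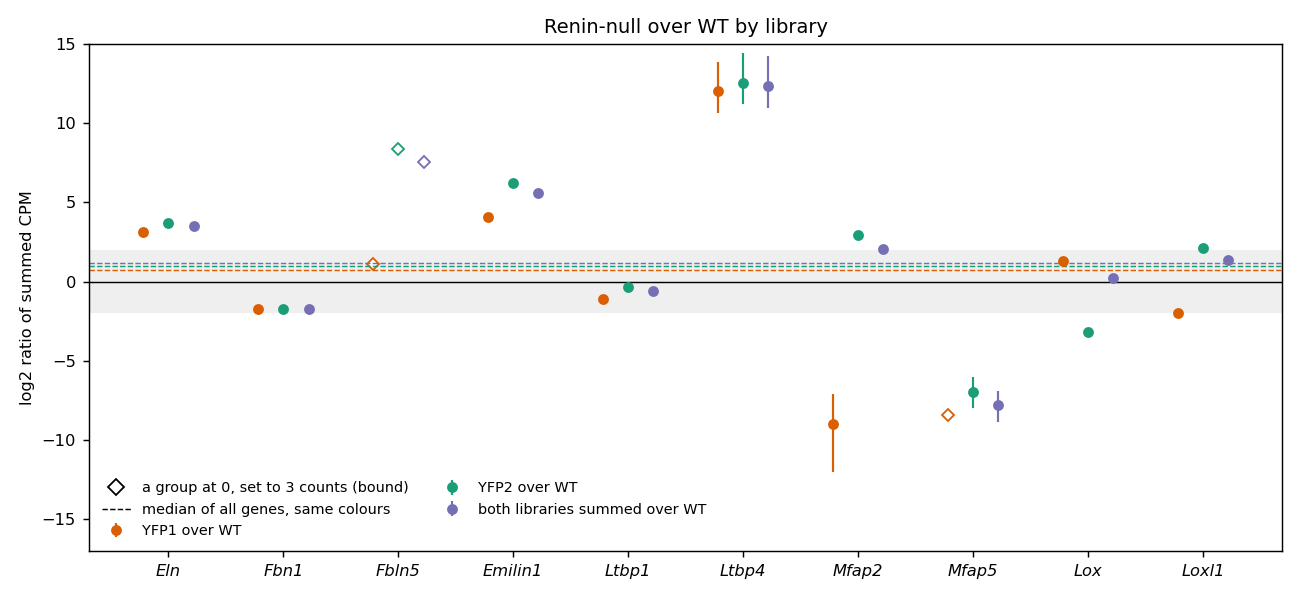
Log2 ratio of summed CPM over WT for YFP1 (orange), YFP2 (green) and both libraries (purple), with 95% intervals for counting error, which are often smaller than the points. Open diamonds are bounds with a group at 0 set to 3 counts, dashed lines are the medians of all genes and the grey band is under 4-fold. *Eln*, *Emilin1* and *Ltbp4* lie above the band in both libraries and *Mfap5* below it, while *Mfap2*, *Lox* and *Loxl1* have opposite signs.

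*The genes as a group.* *Renin-null* wells had higher CPM for most genes. Of 18720 genes with a ratio, 67.6% were higher in *Renin-null* wells, with a median log2 ratio of 1.17, and that median was 0.83 with mitochondrial and *Ren1* counts left out of the totals, 0.47 with TMM and 0.33 with DESeq2 factors. Of the 10 elastic fibre genes, 7 were higher and 3 lower, with a median of 1.70. At least 4-fold higher were 5 (*Eln*, *Fbln5*, *Emilin1*, *Ltbp4*, *Mfap2*), where the background is 39.4% of all genes, and at least 4-fold lower was 1 (*Mfap5*), where it is 11.4%. These shares are near the background and are no result about the 10 genes as a group. In YFP1 alone 3 were at least 4-fold higher, where the background is 33.5%, and 2 lower, where it is 19.2%. In YFP2 alone 6 were higher, where it is 37.2%, and 2 lower, where it is 14.5%. Of these 6, *Loxl1* was under 4-fold without the near-identical wells. At least 4-fold higher in each library were 3 (*Eln*, *Emilin1*, *Ltbp4*), where the background is 22.6%, and lower in each was 1 (*Mfap5*), where it is 9.37%. Opposite signs in the libraries were seen for 3 (*Mfap2*, *Lox*, *Loxl1*), where the background is 24.9%. *Eln*, *Emilin1*, *Ltbp4* and *Fbn1* are on the lists of differing genes that the study drew from these same cells, so their direction here is not independent evidence. *Eln* and *Ltbp4* were at least 4-fold higher under all 18 alternatives tried and *Emilin1* under 17, the exception being the difference of mean log2(CPM + 1), at 1.85.

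Levels between genes can be compared only per length. Divided by the length of the longest coding transcript, the summed WT level was highest for *Ltbp1* (41.6 CPM per kb), then *Lox* (19.7), *Mfap2* (5.12) and *Mfap5* (3.74), and it was 3.36 for *Eln*, 1.93 for *Loxl1*, 1.68 for *Fbn1*, 1.66 for *Emilin1* and 0.00375 for *Ltbp4*. In *Renin-null* wells it was highest for *Emilin1* (79.8 CPM per kb), then *Eln* (38.0), *Ltbp1* (27.1), *Lox* (23.2), *Mfap2* (21.3) and *Ltbp4* (19.4), with *Fbn1* at 0.507. This order pools libraries that differ. In YFP1 *Lox* was highest (48.4 CPM per kb), then *Eln* (29.9) and *Emilin1* (28.2), and in YFP2 *Emilin1* (122.8) was highest, then *Eln* (44.7), with *Lox* at 2.13. Several of these positions also rest on few wells. The 3 highest wells held 91.8% of the WT *Eln* counts, the *Emilin1* and *Lox* positions rest on the single wells named above, and 1 well held 66.3% of the *Renin-null* counts of *Mfap2*, which was at 0.0103 CPM per kb in YFP1 and 39.0 in YFP2.

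**Figure D3:**
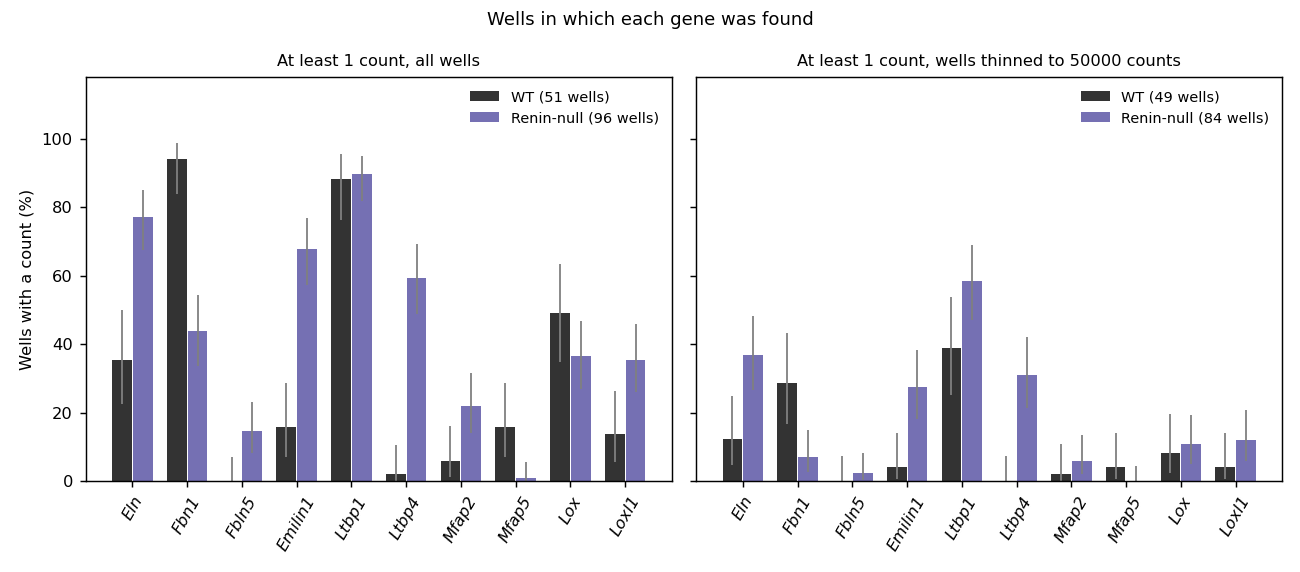
Percentage of wells with at least 1 count of each gene in WT (grey) and *Renin-null* wells (purple), in all wells (left) and after thinning to 50000 counts (right, 49 WT and 84 *Renin-null* wells). Bars start at 0 and lines are exact Clopper-Pearson 95% intervals. The intervals cover the counting of wells and not the spread between mice. *Fbn1* and *Mfap5* were found in a larger share of WT wells, and *Eln*, *Emilin1* and *Ltbp4* in a larger share of *Renin-null* wells, before and after thinning, while after thinning the intervals of *Fbln5* and *Mfap5* overlap.

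*Elastic fibre genes within single wells.* In 96 *Renin-null* wells, at least 100 CPM was reached for *Eln* in 20, for *Emilin1* in 13 and for *Ltbp4* in 21. Of these wells, 26 held 1 of the 3 genes at that level, 11 held 2 and 2 held all 3, and 57 held none. *Eln* and *Emilin1* both reached it in 5 wells, *Eln* and *Ltbp4* in 7 and *Emilin1* and *Ltbp4* in 5. Near-identical wells were counted separately here. Both wells of 1 near-identical pair are among the 5 with *Emilin1* and *Ltbp4*. Both wells of another such pair are among the 7 with *Eln* and *Ltbp4*. Some of these overlaps rest on 1 count of each gene in a shallow well. A YFP2 well of 9102 counts held 109.9 CPM of both *Eln* and *Emilin1*, and a YFP1 well of 6029 counts held 165.9 CPM of both *Eln* and *Ltbp4*. Of the 2 wells with all 3 genes, 1 had 25.6% mitochondrial counts, above the limit, and belongs to the second of those pairs. The overlaps were not counted among wells within the limits. In WT, 49 of 51 wells held none. Counting all 10 genes, at least 1 reached 100 CPM in 17 of 51 WT wells and 54 of 96 *Renin-null* wells, and at least 3 did so in 0 WT and 12 *Renin-null* wells, 9 of them in YFP2. All wells of the same 2 near-identical pairs are among these 12. The only well with 5 genes was the one above the mitochondrial limit. Among wells within the limits on depth and mitochondrial share, at least 1 gene reached 100 CPM in 11 of 15 WT and 42 of 57 *Renin-null* wells, shares of 73.3% and 73.7%, and at least 3 genes did so in 0 of 15 and 9 of 57. The most in a well within the limits was 4 genes. Both wells of the near-identical pair with *Emilin1* and *Ltbp4* are among these 9. The YFP2 well with the most *Eln* (1683 CPM) was also the one with the most *Ltbp4* (1148 CPM), and it held 2355 CPM of *Emilin1* with no count of *Fbn1*. It also held 44200 CPM of pericyte markers and 6562 CPM of fibroblast markers. The YFP2 well with the second most *Eln* held 4844 CPM of fibroblast markers and the one with the most *Emilin1* 3790 CPM, and the part of fibroblast transcripts in these wells was not tested.

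**Figure D4:**
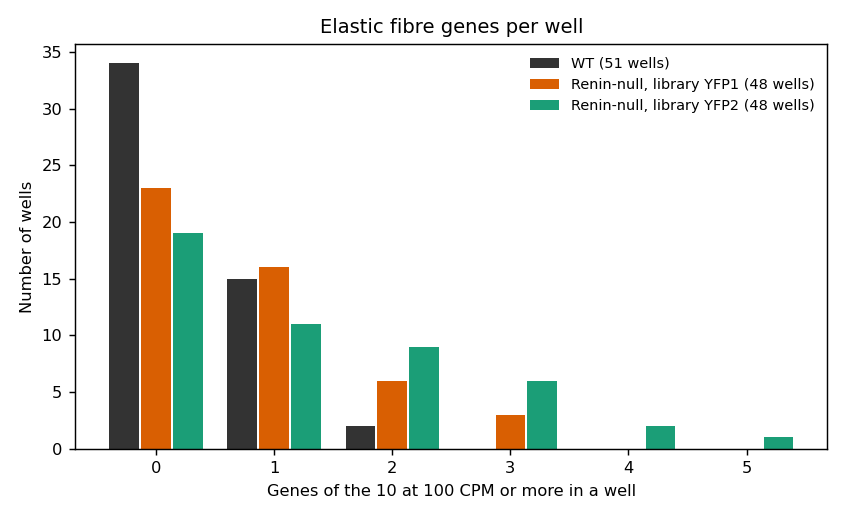
Number of wells (vertical axis) by how many of the 10 elastic fibre genes reached 100 CPM in the well (horizontal axis), for WT (grey), YFP1 (orange) and YFP2 (green). WT wells stop at 2 genes, YFP1 wells at 3 and YFP2 wells at 5. The 1 well with 5 genes was above the limit on mitochondrial share and belongs to a near-identical pair.

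Across the 57 *Renin-null* wells within the limits, Spearman correlations between pairs of the 10 genes had a median of 0.14 and ran from -0.33 to 0.41. The points share library and depth, and the correlations are a description. *Eln* followed the smooth muscle markers, with a correlation of 0.61 with their summed CPM (0.68 in 28 YFP1 wells, 0.59 in 29 YFP2 wells and 0.57 in the 50 wells left without near-identical pairs). The genes whose level was most like that of *Eln* among 3327 genes compared were *Cnn1* (0.60), *Tpm2* (0.59), *Qars* (0.58), *Tagln* (0.57) and *Acta2* (0.57). All but *Qars*, an aminoacyl-tRNA synthetase, encode parts of the smooth muscle contractile apparatus, and *Cnn1*, *Tagln* and *Acta2* are themselves among the markers. In 15 WT wells within the limits, the correlation of *Eln* with the smooth muscle sum was 0.34. Over all wells it was 0.47 in WT (51 wells) and 0.47 in *Renin-null* cells (96 wells). As a sum over wells, the smooth muscle markers were at 11021 CPM in WT wells against 12224 CPM in *Renin-null* ones. The median well held 364 CPM in WT, 4595 CPM in YFP1 and 5675 CPM in YFP2, and 20 of 51 WT wells against 68 of 96 *Renin-null* wells reached 1000 CPM. Their part in the higher *Eln* was not tested. In the 57 *Renin-null* wells *Emilin1* and *Ltbp4* did not show this pattern, with correlations of 0.07 and 0.12 with smooth muscle markers and of 0.29 and 0.40 with fibroblast markers. Over all 96 *Renin-null* wells their correlations with smooth muscle markers were 0.29 and 0.26, against 0.47 for *Eln*. For *Fbn1* the genes most alike were *Csrp2* (0.43), *Zfhx3* (0.40), *Ndst3* (0.38), *Acta2* (0.36) and *Resf1* (0.36). Only 23 of the 57 wells held an *Fbn1* count and their median was 0 CPM, so many of these ranks are ties at 0.

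**Figure D5:**
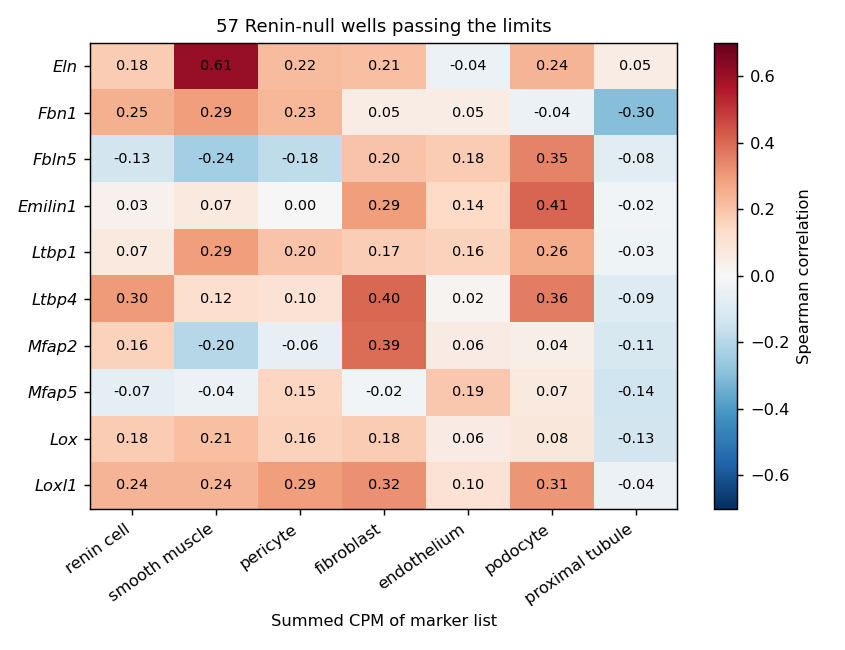
Spearman correlation over 57 *Renin-null* wells between each elastic fibre gene (rows) and the summed CPM of a marker list (columns), with the colour scale from -0.7 to 0.7. The highest value is 0.61, for *Eln* with smooth muscle markers, and *Emilin1* has its highest value, 0.41, with podocyte markers.

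*Markers of other cells.* Markers of fibroblasts, podocytes, proximal tubule and loop and distal tubule had higher sums in both *Renin-null* libraries than in WT. Fibroblast and podocyte markers were highest in YFP2 and the tubule markers in YFP1, while the endothelial and collecting duct sums were below WT in YFP1 and above it in YFP2. Single genes set some of these sums. In YFP1 the endothelial sum followed *Emcn* (24.9 CPM in WT and 3.93 CPM in YFP1), whereas *Kdr* went from 2.57 to 19.1 CPM, and of the collecting duct markers *Aqp3* went from 1.70 to 2.65 CPM. *Synpo* made up 89.9% of the podocyte sum in YFP1, where 2 other podocyte markers were slightly lower than in WT. The summed level of the 9 fibroblast markers was 175 CPM in WT (94.1% of it *Col1a2*), 442 CPM in YFP1 and 1775 CPM in YFP2, where *Col3a1* was the most abundant. Of these markers 8 had a count in each library and *Dpt* was at 0 throughout. Podocyte markers summed to 86.1, 143 and 906 CPM in WT, YFP1 and YFP2, endothelial markers to 32.3, 26.0 and 387 CPM, and proximal tubule markers to 58.5, 1075 and 665 CPM. The endothelial markers *Cdh5* and *Egfl7* and the podocyte marker *Podxl* were at 0 in WT wells. Macrophage markers summed to 0.985, 4.53 and 4.21 CPM, loop and distal tubule markers to 0.515, 189 and 42.95 CPM, and collecting duct markers to 6.205, 2.73 and 67.6 CPM.

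These markers were compared with *Eln*, *Emilin1* and *Ltbp4* directly. In the 15 *Renin-null* wells in which both the fibroblast markers and the summed markers of endothelium, macrophages, podocytes, tubules and collecting duct were under 100 CPM, *Eln* was at 245 CPM, *Emilin1* at 218.5 CPM and *Ltbp4* at 100.1 CPM. In the 35 WT wells chosen the same way, they were at 16.0, 10.8 and 0 CPM. Single wells made up these sums. In the *Renin-null* wells, 1 YFP1 well held 7882 of the 7961 *Eln* counts. Another YFP1 well held both 7059 of the 7108 *Emilin1* counts and 3252 of the 3257 *Ltbp4* counts. The *Eln* well had 2.46 CPM of renin-cell markers and 29758 CPM of smooth muscle markers. The *Emilin1* and *Ltbp4* well had 0.771 and 73.1 CPM of them, so neither well was rich in renin-cell markers. In WT 1 well held 1209 of the 1231 *Eln* counts. In the 4 YFP2 wells among the 15, *Eln* was at 4.54 CPM, *Emilin1* at 3.30 CPM and *Ltbp4* at 0.206 CPM, so the sums do not describe YFP2. *Mfap2*, *Loxl1* and *Fbln5* were near 0 in the same 15 wells, at 0.0615, 0.0615 and 0.0307 CPM. When only wells of at least 100 CPM of the endothelial, macrophage, podocyte, tubule and collecting duct markers were left out, the log2 ratio was 9.52 for *Mfap2* and 7.45 for *Loxl1*. The WT wells left then held 1 count of *Mfap2* and 11 of *Loxl1*, and 1 *Renin-null* well held 987 of 995 and 1 held 2311 of 2605 counts. When wells of at least 100 CPM of fibroblast markers alone were left out, the log2 ratio of *Mfap2* went from 2.05 to -7.90 and that of *Loxl1* from 1.34 to -2.11. In that comparison the log2 ratio was 11.19 for *Ltbp4*, 2.90 for *Eln* and 3.45 for *Emilin1*, and the libraries differed. In the 26 YFP1 wells left, *Eln* was at 114.1 CPM and *Emilin1* at 83.65 CPM, against 13.2 and 6.62 CPM in the 46 WT wells left. In the 10 YFP2 wells left, *Eln* was at 1.95 CPM and *Emilin1* at 1.66 CPM, both lower than in WT, while *Ltbp4* was at 207.9 CPM against 38.5 CPM in YFP1 and 0.0267 CPM in WT. These levels too rest on single wells. One YFP2 well held 2882 of the 2883 *Ltbp4* counts and one YFP1 well 3252 of 3269. In YFP1, 1 well held 7882 of the 9689 *Eln* counts, and the well rich in *Ltbp4* also held 7059 of the 7101 *Emilin1* counts. In WT 1 well held 1209 of the 1975 *Eln* counts and 1 held 827 of the 991 *Emilin1* counts. The spread of the 3 genes over wells poor in fibroblast markers is therefore not shown by these sums. The part of fibroblast transcripts in the higher *Eln* and *Emilin1* of YFP2 was not tested.

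*Other genes of the pathway.* The lists of related genes held 43 genes, of which 38 had a ratio, with a median log2 ratio of 1.94. At least 4-fold higher were 19 and lower 5, where the backgrounds are 39.4% and 11.4% of all genes, and in both libraries 11 and 5, where they are 22.6% and 9.37%. The last 2 shares are also the background for the calls in both libraries of each list below. Among the other fibrillins, fibulins and latent TGF-β binding proteins, 2 of 8 were higher and 3 lower in both libraries. *Efemp1*, which encodes fibulin-3, had no count in WT wells and 43.65 CPM in *Renin-null* wells, with counts in 51 of 96. *Efemp2*, which encodes fibulin-4, a partner of lysyl oxidase in elastin assembly, was the most abundant of the list. It was at 29.8 CPM in WT, 46.8 CPM in YFP1 and 142.5 CPM in YFP2, with 69.7% of the WT counts and 43.9% of the *Renin-null* counts in 1 well each. Fibulin-3 thus had the pattern of *Ltbp4*, absent or nearly so in WT cells and spread over many *Renin-null* wells, although 64.9% of its counts lay in 1 well.

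Of the 9 microfibril-associated and EMILIN genes, 6 had a ratio, and 2 were higher and 1 lower in both libraries. *Mfap3* went from 0.520 CPM in WT (1 well) to 26.8 CPM in *Renin-null* wells (34 wells). *Mfap1b* was the most abundant, at 140.0 and 198 CPM, and its reads may be shared with the near-identical *Mfap1a*. *Mfap4* and *Mmrn1* were at 0 throughout. Among 6 lysyl oxidases and processing proteases, 5 of them with a ratio, none differed by 4-fold in both libraries. *Bmp1*, a protease that activates lysyl oxidase, was the most abundant, at 21.4 CPM in WT, 5.17 CPM in YFP1 and 44.5 CPM in YFP2, below WT in the first library and above it in the second. *Loxl4* was at 0.

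Of the 8 ADAMTS and ADAMTS-like genes, 3 were higher in both libraries and none lower. *Thsd4*, whose product ADAMTSL6 binds fibrillin-1, was the most abundant, at 520.5 CPM in WT, 85.5 CPM in YFP1 and 245.1 CPM in YFP2, so it was lower in both, like *Fbn1*. Of the 6 elastin-binding receptor genes, 1 was higher and 1 lower in both libraries. *Itgav*, the integrin αv chain, was at 12.9 CPM in WT wells against 260 CPM in *Renin-null* ones, with a count in 9 of 51 and 67 of 96 wells. *Itgb5*, its β5 partner, was the most abundant, at 116 and 338 CPM. The libraries differed for *Itgb5*, with a log2 ratio over WT of 0.25 in YFP1 and 2.12 in YFP2. Of its WT counts 66.8% lay in 1 well. *Glb1*, which also encodes the elastin-binding protein, was at 73.25 CPM in WT wells against 7.41 CPM in *Renin-null* ones, with 99.05% of the WT counts in 1 well. Of the 6 elastin-degrading enzymes, 5 had a ratio and 3 were higher in both libraries. *Ctss*, cathepsin S, had no count in WT and 48.7 CPM in *Renin-null* wells, with counts in 25 of 96 wells and 52.2% of them in 1. *Ctsl*, cathepsin L, was the most abundant, at 350.5 and 598 CPM, and *Mmp9* was at 0.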

How the data were processed

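Per the study's methods, reads were checked with FastQC 0.11.5, trimmed with Trimmomatic 0.39 and quantified with Salmon 0.11.2 on GRCm38.p6 (versions per the submitters' processing notes). The authors then summed transcripts to genes with tximport and lengthScaledTPM. Expected counts per gene and well are what the authors deposited; they were rounded to whole numbers here. The log2 ratio of summed CPM was taken with an exact conditional interval. For a group without counts 3 counts were used, and genes with 3 or fewer in both groups have no ratio. A call is 4-fold, with no test. Shares have exact Clopper-Pearson intervals. The ratio was tested on simulated data. No doublet caller was run, and the 10x Chromium experiment was not analysed here. Coordinates are from GENCODE M21, on GRCm38. The 10 genes and all lists were chosen with earlier results of these data known. The text names the 10 genes and, of the related lists, genes past 4-fold in both libraries with at least 10 CPM and the most abundant of each list. Genes most like *Eln* and *Fbn1* were ranked among those at 10 CPM in at least 20% of wells. TMM, DESeq2 and SCTransform scaling, each library alone, thinning, filters on wells and genes, and the highest well left out were alternatives, with 4 added after the data were seen. Some genes of the marker lists are not reported here by name. Software was Python 3.11.15, pandas 2.3.3, scipy 1.17.1, R 4.3.3, edgeR 4.0.16, DESeq2 1.42.0, Seurat 5.3.0 and sctransform 0.4.2.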

Additional observations from a re-analysis of the deposited data

Results flagged for a closer look

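In 3 genes YFP1 wells and YFP2 wells differed from the same WT wells in opposite directions, on the log2 scale of summed CPM. *Mfap2* was at -8.96 in YFP1 and 2.93 in YFP2. *Lox* was at 1.30 in YFP1 and -3.21 in YFP2. *Loxl1* was at -1.98 in YFP1 and 2.15 in YFP2. The differences between the libraries were not tested, since each library is 1 sample. Fibroblast markers, at 442 CPM in YFP1 and 1775 CPM in YFP2, differed between the libraries in the direction of *Mfap2* and *Loxl1*, and their part in the result was not tested. *Dcn*, of the same marker list, went the other way, at 80.35 CPM in YFP1 and 5.58 CPM in YFP2. Without the highest well of each gene, *Lox* was lower than WT in both libraries (-5.66 and -3.15).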

How the results depend on the processing

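The median log2 ratio of the 10 genes, 1.70, is read against that of all genes, 1.17. It was below the median of all genes in YFP1 alone (0.03 against 0.71) and without wells of fibroblast markers (-0.12 against 0.57), and above it under the other 16 alternatives. It was 2.22 with the mean over wells of CPM, 0.47 as the difference of mean log2(CPM + 1), 0.99 with TMM factors, 0.86 with DESeq2 factors, 1.35 without mitochondrial and *Ren1* counts, 2.54 in YFP2 alone, 2.36 without the highest wells, 1.34 in wells within the limits, 1.46 after thinning, 2.20 after SCTransform, 1.56 without near-identical wells and 3.93 (9 genes) without wells of other-lineage markers. The count at least 4-fold higher, 5 where the background is 39.4% of all genes, was 2 as the difference of mean log2(CPM + 1), where it is 1.74%, 3 in YFP1 alone, where it is 33.5%, and between 4 and 6 otherwise, where it ran from 21.5% to 48.2%. The count at least 4-fold lower, 1 where the background is 11.4%, was 2 with the mean over wells (background 8.77%), TMM (15.8%), DESeq2 (17%), YFP1 (19.2%) or YFP2 (14.5%) alone, without mitochondrial and *Ren1* counts (13.35%) and without the highest wells (6.32%). It was 0 after thinning (7.55%) and 4 without wells of fibroblast markers (23.3%). *Mfap2* reversed, to -8.96 in YFP1 alone and -7.90 without wells of fibroblast markers. *Lox* kept its direction in 9 of 18 alternatives, and *Ltbp1* in 14. The causes were not tested.

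No paired analysis was possible because the wells carry no mouse or capture and their numbers are in accession order. Depth limits the low genes: 3 counts over a genotype correspond to 0.0152 CPM over the WT wells and to 0.00752 CPM over the *Renin-null* wells, so that *Fbln5* and *Mfap5* were not detectable below this.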
